A study of Mus musculus with 10 samples.

Results

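The genes described here are 8 transcription factor genes known from blood stem cells, namely Meis1, Hoxa5, Hoxa7, Hoxa9, Hoxa10, Hoxb4, Mecom and Hlf. They were chosen by gene symbol from a table of 23240 genes, and all 8 were found. RNA-seq had been run on progenitors sorted from mouse bone marrow, in 10 libraries that form 5 groups of 2. XMP, Runx1-deleted GMP and Runx1-deleted MEP came from Runx1fl/fl-Tg(vav-Cre) mice, in which both Runx1 alleles carry loxP sites. Wild-type GMP and wild-type MEP came from Runx1+/+-Tg(vav-Cre) mice, so every group carried the Cre transgene, which the Vav1 promoter drives in blood cells. The shared gate was lin- sca- kit+ CD41- CD105-. Granulocyte-macrophage progenitors (GMP) were CD16/32+ CD150-, megakaryocyte-erythroid progenitors (MEP) were CD16/32- CD150+, and XMP were positive for both CD16/32 and CD150. XMP were taken from Runx1-deleted marrow alone, so for XMP the gate and the genotype cannot be told apart against wild-type cells. The labels give no age, sex or number of animals and do not say whether replicate libraries stem from different mice, so the p-values reflect library-to-library spread, which may be technical.

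HOX proteins are DNA-binding factors encoded in clusters, and in blood the Hoxa genes around Hoxa9, and Hoxb4, are most active in stem and early progenitor cells and are shut off as cells mature. MEIS1 belongs to the TALE class of homeodomain proteins, which bind DNA together with HOX proteins and with PBX partners, and joint excess of HOXA9 and MEIS1 drives myeloid leukaemia in mice. Mecom encodes the zinc finger factor EVI1 and its longer form MDS1-EVI1, which sustain stem cells. Hlf encodes a basic leucine zipper factor of the PAR family that marks stem cells. RUNX1 itself is a DNA-binding factor needed for the onset of blood formation and for platelet and lymphoid development.

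Read totals worked back from the deposited values lay between 20.8 and 54.9 M per library, with 75.3% to 83.3% of them in genes. Levels are in RPKM, reads per kilobase of gene scaled by the reads of the library, so levels of different genes are compared per length. The RPKM of Runx1 over its whole length was 78.5 and 85.9 in XMP, 63.0 to 72.3 in Runx1-deleted GMP against 26.9 to 28.5 in wild-type GMP, with 36.8 to 41.5 in Runx1-deleted MEP against 17.2 to 25.5 in wild-type MEP. A whole-gene value does not show the loss of single exons, so it checks nothing about the deletion, and "Runx1-deleted" is used here as the label of the libraries. Summed over 10 GMP markers, the level was 160 to 191 RPKM in XMP, 7957 to 8251 in Runx1-deleted GMP, 12150 to 12320 in wild-type GMP, and at most 59.9 in MEP of either genotype. The sum of 11 MEP markers was 1635 to 2046 RPKM in XMP, 165 to 174 in Runx1-deleted GMP against 84.0 to 96.9 in wild-type GMP, with 1347 to 1495 in Runx1-deleted MEP against 1950 to 2092 in wild-type MEP. No marker of these lists was at 0 throughout a group. Of the transcripts behind the sort, XMP held Slamf1 (CD150) at 30.85 to 30.92 RPKM and Fcgr2b (CD32) at 58.25 to 73.8 RPKM. Fcgr3 (CD16), 1 of the 10 GMP markers, was at 1.645 to 2.12 RPKM in XMP, against 58.1 to 61.3 RPKM in Runx1-deleted GMP. Slamf1 is in the list of stem and multipotent cell markers, which is compared below only between genotypes sorted with the same gate. Itga2b encodes CD41, for which every group was sorted as negative, and is 1 of the 11 MEP markers. It averaged 667 RPKM in XMP, 78.0 in Runx1-deleted GMP, 31.4 in wild-type GMP, 211 in Runx1-deleted MEP and 148 in wild-type MEP. Surface protein was not measured here. All Runx1-deleted libraries were run in lanes 4 and 5 and both wild-type GMP libraries in lanes 2 and 3, so in GMP lane and genotype cannot be told apart.

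The 250 bases before the annotated start are shown for Meis1 and Hoxb4, the members that passed the test in Runx1-deleted GMP, and for Hoxa9, a member that passed it in Runx1-deleted MEP. They are read 5′ to 3′ on the gene's own strand from RefSeq promoters of GRCm38.p6, whereas the deposited values rest on mm9. Capitals mark TGTGGT, the core letters that RUNX proteins bind.
Meis1, chr11:19018970-19019219, minus strand: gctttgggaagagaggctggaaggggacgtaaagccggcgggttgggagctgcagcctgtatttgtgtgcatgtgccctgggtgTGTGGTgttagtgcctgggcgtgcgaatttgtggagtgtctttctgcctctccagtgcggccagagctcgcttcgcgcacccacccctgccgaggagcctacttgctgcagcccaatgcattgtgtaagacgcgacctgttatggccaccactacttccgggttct
Hoxb4, chr11:96318017-96318266, plus strand: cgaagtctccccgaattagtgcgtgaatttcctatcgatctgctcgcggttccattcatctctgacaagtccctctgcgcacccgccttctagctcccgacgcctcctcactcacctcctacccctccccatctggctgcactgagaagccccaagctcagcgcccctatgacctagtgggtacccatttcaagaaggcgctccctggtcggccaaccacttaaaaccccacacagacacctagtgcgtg
Hoxa9, chr6:52227371-52227620, minus strand: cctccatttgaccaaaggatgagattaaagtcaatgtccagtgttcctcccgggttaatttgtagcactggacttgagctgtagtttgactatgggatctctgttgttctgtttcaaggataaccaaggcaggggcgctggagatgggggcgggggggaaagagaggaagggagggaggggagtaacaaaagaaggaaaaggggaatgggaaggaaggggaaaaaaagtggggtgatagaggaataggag
The RUNX letters, searched as TGTGGT or its reverse complement ACCACA, were found in 1 of the 10 windows of the 8 members, that of Meis1, from 166 to 161 bases before the start. They were found in 14.0% of all 32851 promoter windows of this length. The MEIS letters TGACAG (reverse CTGTCA) were found in 1 of 10 member windows, at Mecom, and in 15.9% of all windows. The GATA letters AGATAA (reverse TTATCT) were in 0 of 10 member windows and in 9.99% of all windows. None of these motifs contains another. The window of Meis1 had 59.6% G and C with 13 CpG, that of Hoxb4 58.0% with 14 CpG and that of Hoxa9 49.6% with 3 CpG, beside medians of 52.4% and 6 CpG over all windows. Neither binding nor methylation was measured in this series, so these letters are a description.

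Meis1 was by far the most abundant of the 8 genes, with a mean of 47.7 RPKM over the 10 libraries, above 93.9% of all genes. Hoxa9 averaged 7.40, Hoxa7 4.77, Hlf 4.27, Hoxb4 2.27 and Hoxa10 1.34 RPKM. Mecom averaged 0.516 RPKM, and Hoxa5 0.0399 RPKM from 30 reads in all 10 libraries together. The genes did not peak in the same group. Meis1 was highest in XMP, Hoxb4 and Hlf in Runx1-deleted GMP, Hoxa7 and Hoxa9 in wild-type GMP, and Hoxa10 and Mecom in wild-type MEP.

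**Figure D1:**
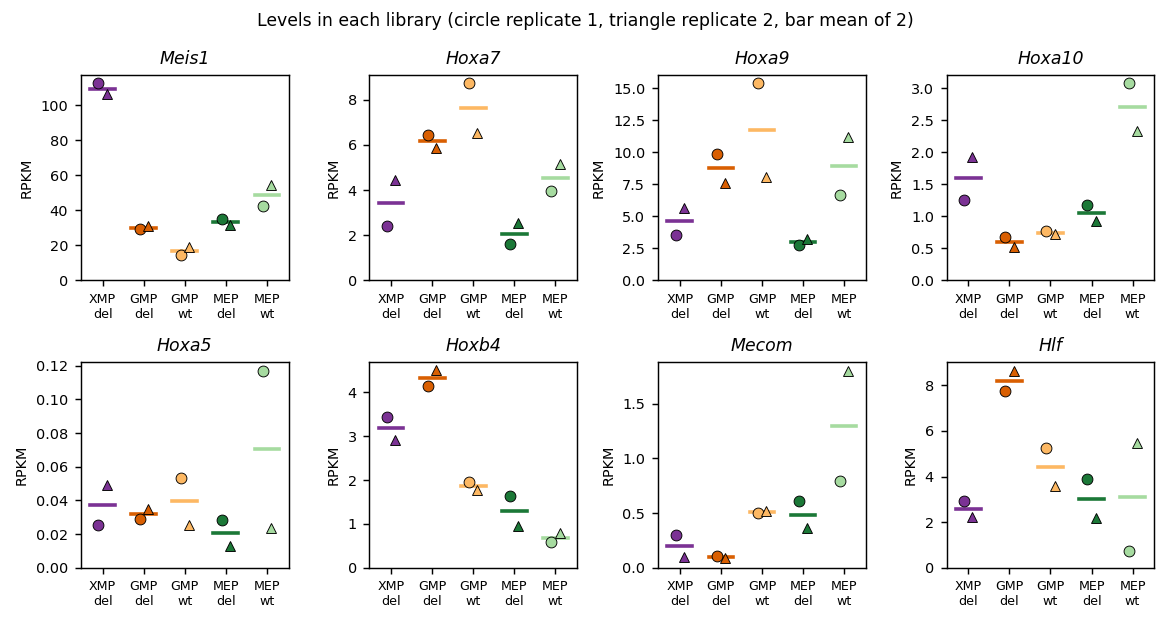
Level of each of the 8 genes in RPKM (vertical axis, from 0, a scale of its own for each gene) in the 2 libraries of each group; circles are replicate 1, triangles replicate 2 and bars the mean of 2, "del" is Runx1-deleted and "wt" wild type. Both XMP libraries have Meis1 above 106 RPKM while the highest other library has 54.7, and the wild-type MEP libraries of Hlf lie far apart at 0.747 and 5.46.

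A gene was tested where it had at least 1 RPKM in at least 2 libraries, which 6 members and 10905 genes passed; Mecom reached 1 RPKM in 1 library and Hoxa5 in 0. Differences are of log2(RPKM + 1), given ± SE from limma, and were called at an adjusted p under 0.05 over all genes tested. This scale understates changes of genes near 1 RPKM and below. In Runx1-deleted against wild-type GMP 2 of 6 members rose and 0 fell, where 5.22% of all genes were called (3.15% higher, 2.07% lower). In Runx1-deleted against wild-type MEP 0 rose and 2 fell, where 8.0% of genes were called (3.97% higher, 4.03% lower). In XMP 2 were higher than in Runx1-deleted GMP, where 19.7% of genes were called (9.75% higher, 9.90% lower), and 2 were higher than in Runx1-deleted MEP, where 7.74% were called (5.14% higher, 2.60% lower); 0 were lower in either. In wild-type GMP against wild-type MEP 1 was higher and 2 were lower, where 21.6% were called (11.7% higher, 9.83% lower). The median difference over the 6 members was 0.32 in Runx1-deleted against wild-type GMP and -0.68 in Runx1-deleted against wild-type MEP, beside 0.05 and 0.03 over all genes tested. It was -0.54 in XMP against Runx1-deleted GMP and 0.49 in XMP against Runx1-deleted MEP, beside 0.05 and 0.05. Without wild-type MEP replicate 1, in which long genes stood low, fewer members were called in MEP. In XMP against Runx1-deleted GMP more were called when either wild-type MEP library was left out. Each of these fits holds 1 wild-type MEP library, and its share of all genes called was not worked out.

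**Figure D2:**
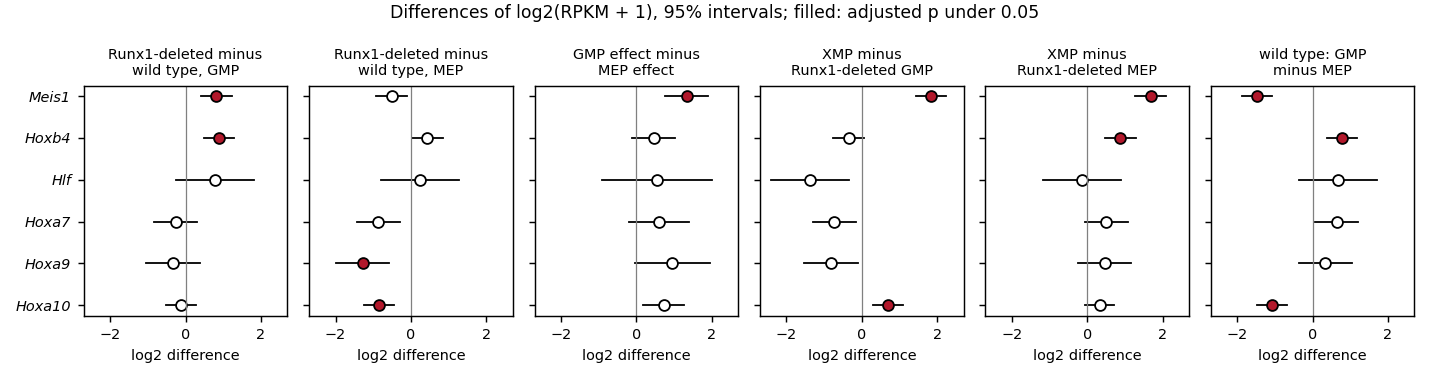
Differences of log2(RPKM + 1) for the 6 tested genes (rows) in 6 comparisons (panels), with 95% intervals as lines; the tested difference is named above each panel and filled points have an adjusted p under 0.05. Meis1 is filled in 5 panels, right of 0 in all of these except wild-type GMP minus MEP, where it lies at -1.48.

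Meis1, the TALE cofactor, had the largest called log2 difference among the 6 tested members. It had 113 and 106 RPKM in the XMP libraries. In Runx1-deleted GMP it had 29.35 and 30.85 RPKM, against 14.7 and 18.9 RPKM in wild-type GMP. In Runx1-deleted MEP it had 34.99 and 31.9 RPKM, against 42.6 and 54.7 RPKM in wild-type MEP. No pair of groups overlapped, and the order of the means from high to low was XMP, wild-type MEP, Runx1-deleted MEP, Runx1-deleted GMP and wild-type GMP. The mean in XMP was 6.53 times that in wild-type GMP. Runx1-deleted MEP and Runx1-deleted GMP, neighbours in this order, lay closest together, at 31.9 and 30.85 RPKM for the nearest libraries. This pair was not tested with limma. For it the authors' deposited table lists an unadjusted p-value of 0.688 by Baggerley's test.

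Meis1 rose in Runx1-deleted GMP, to 30.1 ± 1.07 RPKM against 16.8 ± 2.995 RPKM in wild-type GMP (SD, n = 2 each), a log2 difference of 0.82 ± 0.18 (adjusted p = 0.0256). In MEP the difference had the other sign and missed the threshold, with 33.5 ± 2.18 RPKM in Runx1-deleted MEP and 48.6 ± 8.55 RPKM in wild-type MEP (log2 difference -0.52 ± 0.18, adjusted p = 0.125). The difference between these effects passed the test, at 1.33 ± 0.26 on the log2 scale (adjusted p = 0.0266), where 1.74% of all genes were called (0.954% higher, 0.789% lower). In these bulk samples fewer cells of a type and less RNA per cell cannot be told apart. With the trend with gene length removed the difference in GMP was 0.68 (adjusted p = 0.0269); long genes stood relatively high in Runx1-deleted GMP (longest 10% minus shortest 10% of genes, 0.38 and 0.27 on the log2 scale) and low in wild-type GMP (-0.39 and -0.53). The call in GMP was lost without wild-type GMP replicate 1 (adjusted p = 0.11) or without Runx1-deleted GMP replicate 1 (0.165) or 2 (0.206). The difference between the effects was no longer called when a GMP library was left out (adjusted p 0.0525 to 0.15 over the 4), without either Runx1-deleted MEP library (0.0697 and 0.105) or with voom on the reads worked back (0.0755), a fit added after the data were seen. In MEP the fall of Meis1 was called when the trend with gene length was removed (-0.62, adjusted p = 0.0284) and among the libraries of lanes 4 and 5 (-0.69, adjusted p = 0.0429). Those lanes hold only 1 wild-type MEP library, which the fit assumes to vary like the other groups. Without the filter neither the rise of Meis1 in GMP (adjusted p = 0.0813) nor the difference between the effects (0.0878) was called.

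Other cell markers differed between Runx1-deleted and wild-type GMP too. Of 11 MEP markers 3 rose (Treml1, Gp5 and Itga2b) and 1 fell (Car1), and of 10 stem and multipotent cell markers 4 rose, Tek, Slamf1 and Esam among them. The stem cell list summed to 369 to 399 RPKM in Runx1-deleted GMP against 331 to 369 RPKM in wild-type GMP. Within these sums Cd48 averaged 107.9 RPKM in Runx1-deleted GMP against 62.85 RPKM in wild-type GMP (log2 difference 0.78, adjusted p = 0.0596). Cd34 averaged 216 against 246 RPKM and was not called, so the sum does not speak for each marker. Of 6 basophil and mast cell markers 4 fell (Prss34, Gzmb, Mcpt8 and Fcer1a), with sums of 233 to 257 RPKM in Runx1-deleted GMP against 601 to 652 RPKM in wild-type GMP. Cpa3 of that list made up most of the sum in Runx1-deleted GMP, at 220.1 ± 10.8 RPKM against 115.5 ± 28.2 RPKM in wild-type GMP (SD, n = 2 each; log2 difference 0.95, adjusted p = 0.0848). No marker of these 3 lists was at 0 throughout either group. Their part in the differences of Meis1 and Hoxb4 was not tested.

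In XMP, Meis1 stood above both other Runx1-deleted populations. The log2 difference was 1.83 ± 0.18 from Runx1-deleted GMP (adjusted p = 2.55e-05) and 1.68 ± 0.18 from Runx1-deleted MEP (adjusted p = 0.000501). These comparisons share the XMP libraries. Both calls held under all 19 alternatives run, with adjusted p-values of at most 0.00155 and 0.0169. In wild-type cells Meis1 was lower in GMP than in MEP, by a log2 difference of -1.48 ± 0.18 (adjusted p = 0.000116), and this call held under all 18 alternatives. All 10 GMP markers were lower in XMP than in Runx1-deleted GMP and 10 of 11 MEP markers were higher. Against Runx1-deleted MEP, 9 of 10 GMP markers were higher in XMP. Fcgr3 is among these 9 and encodes a protein of the gate, for which XMP were sorted as positive and MEP as negative. Its call is therefore not independent of the sort. Of 11 MEP markers 4 were higher in XMP (Itga2b, Gp9, Treml1 and Gp5) and 4 lower (Car1, Klf1, Tfrc and Epor). The part of these markers in the level of Meis1 was not tested.

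PBX proteins, the partners that MEIS1 and HOX proteins bind DNA with, are part of the TALE class, of which 7 of 10 genes were tested. Pbx3 was higher in XMP than in Runx1-deleted GMP, at 7.87 ± 1.31 RPKM in XMP and 3.15 ± 0.247 RPKM in Runx1-deleted GMP (SD, n = 2 each; log2 difference 1.09 ± 0.20, adjusted p = 0.00193). Tgif1, a TALE repressor, was lower, at 5.18 ± 1.504 RPKM in XMP and 13.8 ± 0.617 RPKM in Runx1-deleted GMP (log2 difference -1.28 ± 0.23, adjusted p = 0.00171). In wild-type GMP Pbx4 (-1.30, adjusted p = 0.0191), Tgif2 (-0.96, adjusted p = 0.0156) and Pbx3 (-0.77, adjusted p = 0.0156) were lower than in wild-type MEP. By genotype 0 of 7 were called in GMP and also 0 of 7 in MEP.

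Hoxa9, the Hoxa gene with the highest level, and its neighbour Hoxa7 were lowest in Runx1-deleted MEP. Hoxa9 had 3.52 and 5.685 RPKM in XMP. It had 9.875 and 7.62 RPKM in Runx1-deleted GMP, against 15.45 and 8.04 RPKM in wild-type GMP. In Runx1-deleted MEP it had 2.76 and 3.20 RPKM, against 6.65 and 11.2 RPKM in wild-type MEP. The GMP groups overlapped, with wild-type GMP replicate 2 inside the range of Runx1-deleted GMP and replicate 1 above it, and the MEP groups did not. Hoxa9 fell in Runx1-deleted MEP, to 2.98 ± 0.315 RPKM against 8.92 ± 3.21 RPKM in wild-type MEP (SD, n = 2 each), a log2 difference of -1.28 ± 0.32 (adjusted p = 0.0332). In GMP the difference was -0.33 (95% interval -1.04 to 0.37, adjusted p = 0.55). The difference between these effects was 0.95 (95% interval -0.05 to 1.95, adjusted p = 0.542), so an unequal effect in GMP and MEP was not shown.

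The call of Hoxa9 in MEP did not hold without Runx1-deleted MEP replicate 1 (adjusted p = 0.14) or 2 (0.126), wild-type MEP replicate 2 (0.0694), or Runx1-deleted GMP replicate 1 (0.0517) or 2 (0.0516), which only lend their spread. The call was also lost when the 4 MEP libraries were fitted alone (adjusted p = 0.0854) and without the filter (0.199).

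Hoxa7 had 2.39 and 4.46 RPKM in XMP. It had 6.44 and 5.88 RPKM in Runx1-deleted GMP, against 8.76 and 6.54 RPKM in wild-type GMP. In Runx1-deleted MEP it had 1.62 and 2.52 RPKM, against 3.94 and 5.16 RPKM in wild-type MEP. As for Hoxa9, the Runx1-deleted MEP libraries lay below both wild-type MEP libraries, but the difference missed the threshold (-0.86 ± 0.26, adjusted p = 0.0719); it passed after quantile normalization (adjusted p = 0.0395). In XMP against Runx1-deleted GMP the log2 difference was -0.73 ± 0.26 for Hoxa7 (adjusted p = 0.0755) and -0.82 ± 0.32 for Hoxa9 (adjusted p = 0.111). Both passed after quantile normalization (adjusted p = 0.0348 for Hoxa7 and 0.0405 for Hoxa9) and in the fit of these groups alone (0.0435 for Hoxa7 and 0.025 for Hoxa9). That of Hoxa7 was also called without XMP replicate 2 (0.0292), and that of Hoxa9 among lanes 4 and 5 (0.0305). Against Runx1-deleted MEP, XMP had a difference of 0.50 for Hoxa7 (95% interval -0.07 to 1.07) and of 0.47 for Hoxa9 (95% interval -0.24 to 1.17).

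Hoxa10, which lies next to Hoxa9 in the cluster, had another pattern. It had 1.26 and 1.935 RPKM in XMP. It had 0.678 and 0.517 RPKM in Runx1-deleted GMP, against 0.767 and 0.717 RPKM in wild-type GMP. In Runx1-deleted MEP it had 1.185 and 0.925 RPKM, against 3.09 and 2.33 RPKM in wild-type MEP. All 4 GMP libraries stayed below 1 RPKM and all other libraries had at least 0.925 RPKM, with wild-type MEP highest. Hoxa10 fell in Runx1-deleted MEP, to 1.06 ± 0.184 RPKM against 2.71 ± 0.533 RPKM in wild-type MEP (SD, n = 2 each), a log2 difference of -0.85 ± 0.18 (adjusted p = 0.0147). It was higher in XMP than in Runx1-deleted GMP (0.69 ± 0.18, adjusted p = 0.017) and lower in wild-type GMP than in wild-type MEP (-1.08 ± 0.18, adjusted p = 0.000968). In GMP the genotype difference was -0.13 (95% interval -0.52 to 0.27), and the difference between the effects was 0.72 (adjusted p = 0.262). At the GMP levels of Hoxa10, below 1 RPKM, log2(RPKM + 1) understates a change.

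The contrast of the wild-type populations held for Hoxa10 under all 18 alternatives run. Without the filter neither its fall in MEP (adjusted p = 0.0733) nor its difference between XMP and Runx1-deleted GMP (0.0653) was called. The fall in MEP no longer passed when Runx1-deleted MEP replicate 2 (adjusted p = 0.133) or wild-type MEP replicate 1 (0.0726) was left out, among lanes 4 and 5, with 1 wild-type MEP library (0.0971), and with the 4 MEP libraries alone (0.0977). The difference between XMP and Runx1-deleted GMP was lost without Runx1-deleted GMP replicate 1 (0.0624) or 2 (0.138), without XMP replicate 2 (0.179) and when the length trend was removed (0.0538).

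In Runx1-deleted against wild-type MEP, other markers differed as well. Of 10 GMP markers 1 rose (Csf3r) and 2 fell (Cebpa and Ms4a3), with sums of 42.0 to 42.7 RPKM in Runx1-deleted MEP against 45.01 to 59.9 RPKM in wild-type MEP. Of 6 basophil and mast cell markers 3 fell (Prss34, Mcpt8 and Fcer1a), with sums of 7.83 to 16.8 RPKM in Runx1-deleted MEP against 17.0 to 20.3 RPKM in wild-type MEP. Of 11 MEP markers 4 rose (Treml1, Tfrc, Gp5 and Epor) and 0 were called lower. Their sum was lower all the same, at 1347 to 1495 RPKM in Runx1-deleted MEP against 1950 to 2092 RPKM in wild-type MEP. Car1 averaged 354 RPKM in Runx1-deleted MEP against 867 RPKM in wild-type MEP (log2 difference -1.29, adjusted p = 0.0793). Pf4 averaged 189 against 528 RPKM (-1.49, adjusted p = 0.097). Of 10 stem and multipotent cell markers 3 rose (Slamf1, Esam and Cd48) and 0 fell, with sums of 149.9 to 158 RPKM in Runx1-deleted MEP against 111 to 117 RPKM in wild-type MEP. None of these markers was at 0 throughout either group, and their part in the differences of Hoxa9 and Hoxa10 was not tested.

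Ratios within a library set these patterns side by side. The ratio of Meis1 to Hoxa9 was 32.0 and 18.7 in XMP. It was 2.97 and 4.05 in Runx1-deleted GMP against 0.949 and 2.35 in wild-type GMP, with 12.7 and 9.96 in Runx1-deleted MEP against 6.40 and 4.88 in wild-type MEP. Meis1 thus exceeded Hoxa9 per length in 9 of 10 libraries, and the ratio was higher in each Runx1-deleted group than in its wild-type counterpart without overlap. A ratio shows unequal change of the 2 genes, not that either stayed level. Hoxa10 over Hoxa9 was 0.340 to 0.358 in XMP, 0.0679 to 0.0687 in Runx1-deleted GMP, 0.0496 to 0.0892 in wild-type GMP and 0.209 to 0.464 in MEP of both genotypes. Hoxa7 over Hoxa9 stayed between 0.461 and 0.813 in all libraries.

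**Figure D3:**
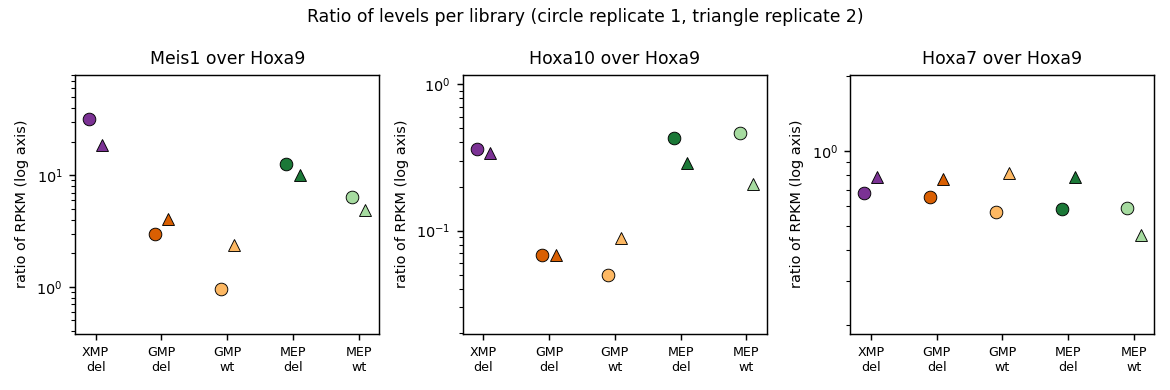
Ratios of RPKM within each library (log axes): Meis1 over Hoxa9, Hoxa10 over Hoxa9 and Hoxa7 over Hoxa9, by group, with circles for replicate 1 and triangles for replicate 2. Meis1 over Hoxa9 spans 0.949 to 32.0, Hoxa10 over Hoxa9 falls in a low set of GMP libraries (at most 0.0892) and a higher set of XMP and MEP libraries (at least 0.209), and Hoxa7 over Hoxa9 varies least.

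Hoxa5 could not be compared: its libraries held 1 to 8 reads each, 0.0126 to 0.117 RPKM. Its neighbours Hoxa4 and Hoxa6 were at most 0.0751 and 0.23 RPKM in any library. Of 39 Hox genes in the table, 6 passed the filter: Hoxa3, Hoxa7, Hoxa9 and Hoxa10 in the Hoxa cluster, and Hoxb3 and Hoxb4 in the Hoxb cluster. The other 33 were under 1 RPKM in every library, 9 of them without a read, and so were all 9 Hoxc and all 9 Hoxd genes. Hoxa3 averaged 0.489 RPKM in Runx1-deleted MEP against 1.07 RPKM in wild-type MEP, a log2 difference of -0.47 (adjusted p = 0.114). In the GRCm38 annotation Hoxa5 lies within the span of Hoxa3 and opposite an antisense gene. The labels do not give the strand of the libraries, so reads of these genes cannot be told apart, and the levels of Hoxa3 and Hoxa5 are uncertain to that extent.

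**Figure D4:**
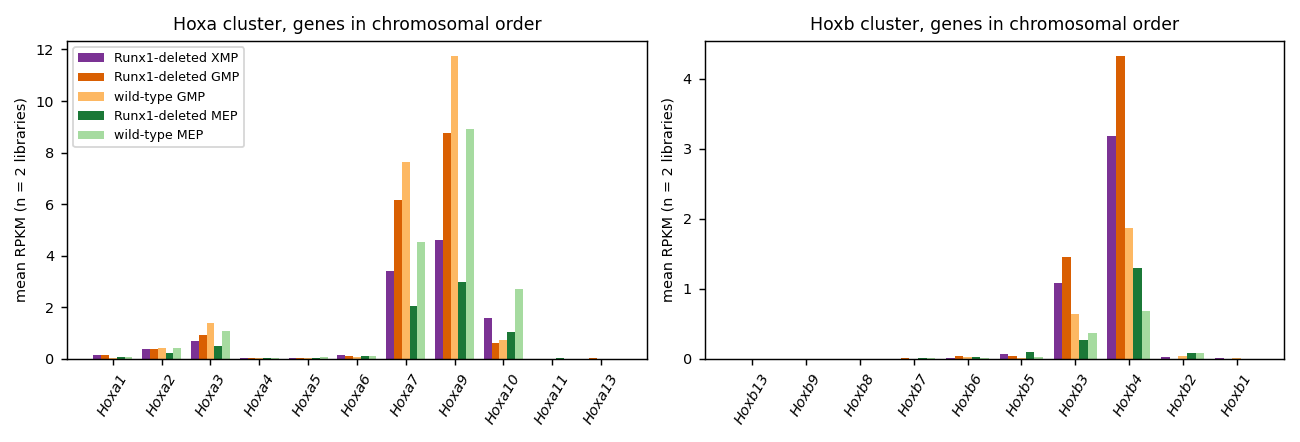
Mean RPKM of 2 libraries per group (bars from 0, vertical axis) for the 11 Hoxa genes and the 10 Hoxb genes of the table, in their order along the chromosome; bars run from XMP through Runx1-deleted and wild-type GMP to Runx1-deleted and wild-type MEP. Only Hoxa3, Hoxa7, Hoxa9, Hoxa10, Hoxb3 and Hoxb4 pass the filter.

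Hoxb4, known for expanding blood stem cells when supplied in excess, was the other member that rose in Runx1-deleted GMP. It had 3.445 and 2.915 RPKM in XMP. It had 4.145 and 4.50 RPKM in Runx1-deleted GMP, against 1.96 and 1.78 RPKM in wild-type GMP. In Runx1-deleted MEP it had 1.63 and 0.958 RPKM, against 0.578 and 0.781 RPKM in wild-type MEP. Neither genotype pair overlapped, and Runx1-deleted GMP and XMP were the highest. The log2 difference between Runx1-deleted GMP (4.32 ± 0.254 RPKM) and wild-type GMP (1.87 ± 0.127 RPKM; SD, n = 2 each) was 0.89 ± 0.18 (adjusted p = 0.0161). In MEP it had the same sign and was not called (0.44 ± 0.18, adjusted p = 0.193), and the difference between the effects was 0.46 (95% interval -0.11 to 1.03). The MEP libraries lay at 0.578 to 1.63 RPKM, where log2(RPKM + 1) understates a change, so the sizes in GMP and MEP are not like for like. XMP was above Runx1-deleted MEP by 0.88 ± 0.18 (adjusted p = 0.0146) and differed from Runx1-deleted GMP by -0.35 (95% interval -0.75 to 0.05). Wild-type GMP was above wild-type MEP by 0.77 ± 0.18 (adjusted p = 0.0101). Meis1 and Hoxb4 thus both rose in Runx1-deleted GMP but lay on opposite sides in the wild-type populations.

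The call of Hoxb4 in GMP was lost without wild-type GMP replicate 1 (adjusted p = 0.0547) or 2 (0.137), without Runx1-deleted GMP replicate 1 (0.0963) or 2 (0.146), and with a pseudocount of 0.1 (0.0512). The difference between XMP and Runx1-deleted MEP was lost without XMP replicate 1 (0.127) or 2 (0.0589), without Runx1-deleted MEP replicate 2 (0.138) and with these groups alone (0.0517). The wild-type contrast was lost without wild-type GMP replicate 1 (0.0579). Without the filter Hoxb4 was called neither in GMP by genotype (adjusted p = 0.0793) nor in XMP against Runx1-deleted MEP (0.0769). Hoxb3, the neighbour of Hoxb4, averaged 1.09 RPKM in XMP, 1.46 in Runx1-deleted GMP against 0.641 in wild-type GMP, with 0.276 in Runx1-deleted MEP against 0.373 in wild-type MEP. Its difference in GMP was 0.58 (adjusted p = 0.189). RefSeq places Hoxb4 within the span of Hoxb3 on the same strand, so reads of these 2 genes may have been split either way.

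Hlf had 2.94 and 2.23 RPKM in XMP. It had 7.74 and 8.64 RPKM in Runx1-deleted GMP, against 5.24 and 3.61 RPKM in wild-type GMP. In Runx1-deleted MEP it had 3.885 and 2.16 RPKM, against 0.747 and 5.46 RPKM in wild-type MEP. Both Runx1-deleted GMP libraries lay above all others, and the wild-type MEP libraries enclosed those of Runx1-deleted MEP. The spread of wild-type MEP made Hlf the member with the widest error, 0.47 on the log2 scale in each 2-group comparison, and 0 of 6 comparisons were called. The log2 difference of Runx1-deleted from wild-type GMP was 0.78 (95% interval -0.26 to 1.81, adjusted p = 0.341), and that of XMP from Runx1-deleted GMP was -1.37 (95% interval -2.40 to -0.33, adjusted p = 0.0676). The fit of the compared groups alone, which leaves wild-type MEP out, called both, at an adjusted p of 0.0354 in GMP and 0.000415 in XMP against Runx1-deleted GMP.

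What Hlf shows in MEP rests largely on the wild-type MEP libraries. At 5665 bases Hlf is a long gene, and in wild-type MEP replicate 1 the median of the longest 10% of genes minus that of the shortest 10% was -1.18 on the log2 scale, each gene taken relative to its mean over libraries, against -0.39 and -0.53 in wild-type GMP and 0.0047 to 0.65 in the other 7 libraries. Without that library the difference of XMP from Runx1-deleted GMP was called (adjusted p = 0.00201), as it was without wild-type MEP replicate 2 (0.00199), among lanes 4 and 5 (0.0044) and with the length trend removed (-1.44, adjusted p = 0.0151). In MEP the difference of Hlf was 0.23 (adjusted p = 0.802), -0.72 without wild-type MEP replicate 1 and 1.17 without replicate 2. It also fell just below 0 without Runx1-deleted MEP replicate 1 and with the length trend removed, so its direction in MEP was not settled. The wild-type difference, GMP minus MEP, was 0.67 (adjusted p = 0.385), -0.27 without wild-type MEP replicate 1 and 1.62 without replicate 2 (adjusted p = 0.0026).

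Mecom failed the filter, and its counts are given instead. It had 68 and 24 reads in XMP, 31 and 22 reads in Runx1-deleted GMP against 109 and 60 in wild-type GMP, with 125 and 84 reads in Runx1-deleted MEP against 159 and 449 in wild-type MEP. Per length and depth these are 0.295 and 0.10 RPKM in XMP, 0.103 and 0.0867 RPKM in Runx1-deleted GMP against 0.497 and 0.523 RPKM in wild-type GMP, and 0.608 and 0.361 RPKM in Runx1-deleted MEP against 0.794 and 1.797 RPKM in wild-type MEP. Both Runx1-deleted groups lay below their wild-type counterparts without overlap. With voom on genes of at least 10 reads in 2 libraries, a fit chosen after these values were seen, the log2 difference was -2.40 ± 0.68 in GMP (adjusted p = 0.0776) and -1.39 ± 0.47 in MEP (adjusted p = 0.103). Neither passed. On log2(RPKM + 1) without the filter the difference was -0.46 in GMP (adjusted p = 0.437) and -0.60 in MEP (adjusted p = 0.294). The whole-gene value does not separate EVI1 from the longer MDS1-EVI1.

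Among other genes of these families, 5 of 7 relatives of Mecom and Hlf were tested. Nfil3, a leucine zipper repressor that binds the same DNA sites as the PAR factors, was lower in XMP (0.905 ± 0.433 RPKM) than in Runx1-deleted GMP (4.02 ± 1.04 RPKM; SD, n = 2 each), by a log2 difference of -1.40 (adjusted p = 0.00171). It was higher in wild-type GMP than in wild-type MEP (1.92, adjusted p = 0.000168). Dbp, a PAR factor like Hlf, was lower in wild-type GMP than in wild-type MEP (-1.20, adjusted p = 0.00607). By genotype 0 of 5 were called in GMP and 0 of 5 in MEP.

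Of 23 regulators of Hox and Meis1 transcription, such as MLL complex and Polycomb genes, 20 were tested. By genotype, 5.22% of all genes were called in GMP and 8.0% in MEP, so low counts among 20 genes set them little apart. In GMP 0 were called by genotype. In MEP 1 rose and 0 fell: Mllt3, a partner of MLL in transcription elongation, was at 13.5 ± 1.17 RPKM in Runx1-deleted MEP and 5.32 ± 1.68 RPKM in wild-type MEP (SD, n = 2 each; log2 difference 1.22 ± 0.20, adjusted p = 0.00407). Mllt3 was also higher in XMP than in Runx1-deleted GMP (1.49, adjusted p = 0.000268) and lower in wild-type GMP than in wild-type MEP (-0.93, adjusted p = 0.00631), as was Psip1 (-0.82, adjusted p = 0.0176).

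Of 21 other stem and progenitor transcription factors 18 were tested. In Runx1-deleted GMP 2 rose and 0 fell, Hmga2 (1.52, adjusted p = 0.00258) and the ETS factor Erg (1.04, adjusted p = 0.0465). In Runx1-deleted MEP 1 rose, Lyl1 (0.96, adjusted p = 0.0226), and 5 fell, with Egr1 (-1.29, adjusted p = 0.00465), Ndn (-1.26, adjusted p = 0.000117) and Mycn (-1.05, adjusted p = 0.0304) the largest. The effects of Mycn (1.77, adjusted p = 0.0341) and Hmga2 (1.76, adjusted p = 0.02) differed between GMP and MEP. Ndn passed this test too (1.04, adjusted p = 0.0121), but it was at 0.0176 RPKM in Runx1-deleted GMP against 0.185 RPKM in wild-type GMP, where log2(RPKM + 1) leaves little room for a fall, so for Ndn this is no measure of an unequal effect. XMP stood above Runx1-deleted MEP in 4 of them, including Fli1 (1.61, adjusted p = 0.011) and Mycn (1.47, adjusted p = 0.00602), and below in 0. Against Runx1-deleted GMP it was above in 7 and below in 2.

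Of 18 genes reported as targets of Hoxa9, Meis1 or Mecom, 16 were tested. In Runx1-deleted against wild-type GMP 1 rose and 0 fell. Tek, the angiopoietin receptor of stem cells, was at 6.88 ± 0.264 RPKM in Runx1-deleted GMP against 0.798 ± 0.313 RPKM in wild-type GMP (SD, n = 2 each; log2 difference 2.14, adjusted p = 0.000165). Its effect differed between GMP and MEP (1.63, adjusted p = 0.0197). In Runx1-deleted MEP 2 fell, Angpt1 (-1.49, adjusted p = 0.0154) and Sfpi1 (-0.80, adjusted p = 0.0384), and 0 rose. In XMP against Runx1-deleted GMP 5 were higher and 3 lower. Pf4 (5.15, adjusted p = 1.69e-05), Trib2 (3.10, adjusted p = 3.78e-06) and Zfpm1 (2.93, adjusted p = 1.01e-05) were the largest rises, beside Tek and Syk. Flt3 (-3.60, adjusted p = 1.98e-06), Cd34 (-3.55, adjusted p = 2.78e-07) and Sfpi1 (-2.18, adjusted p = 1.79e-05) were the lower ones. Flt3 is known as a gene that MEIS1 can raise. It averaged 0.929 RPKM in XMP, the group with the most Meis1, and 22.6 RPKM in Runx1-deleted GMP. Its low level was not particular to XMP, with 1.13 RPKM in Runx1-deleted MEP and 1.855 RPKM in wild-type MEP. Wild-type GMP had 25.3 RPKM. A link of Flt3 to the level of Meis1 was not tested. Against Runx1-deleted MEP 4 were higher in XMP, among them Angpt1 (1.59, adjusted p = 0.0113) and Tek (1.23, adjusted p = 0.00541), and Trib2 was lower (-1.09, adjusted p = 0.0191).

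As a description over the 10 libraries, which fall into 5 groups, each member was set against 1665 genes by Pearson r of log2 values. Closest to Meis1 were Dlg3 (r = 0.985), H1f0 (0.973) and Cuedc1 (0.970), all highest in XMP and lowest in wild-type GMP. Hoxa7 and Hoxa9 correlated at 0.944 with each other, and the gene closest to both was Trpv2, at 0.978 with Hoxa7 and 0.952 with Hoxa9. Next came Cd300a (0.948) and Mical1 (0.946) for Hoxa7, and Pdgfrb (0.924) and Aim2 (0.918) for Hoxa9. Hoxa10 was closest to H2-Q7 (0.894), 2010204K13Rik (0.880) and Gata2 (0.875), and Hoxb4 to Myo7a (0.965), Otos (0.965) and Pde2a (0.954). Hlf was closest to Hells (0.927), Clip1 (0.913) and Gnptab (0.901). Between the other pairs of tested members r ran from -0.676 (Hoxa10 and Hlf) to 0.598 (Hoxb4 and Hlf).

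In the authors' deposited table, Baggerley's test gave an FDR-corrected p-value under 0.05 for Meis1 alone among the 8 genes. The authors' deposited table has it for Meis1 in 7 comparisons, with 0.0465 for Runx1-deleted against wild-type GMP, 1.41e-06 between the wild-type populations and a listed value of 0 for XMP against each other group. For Runx1-deleted against wild-type MEP the authors' deposited table lists 1 for Meis1.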

How the data were processed

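RNA-seq of sorted mouse marrow progenitors was analysed in 10 libraries of 5 groups. RNA was extracted with a phenol reagent and libraries were made with TruSeq or NEBNext kits, per the labels' protocols, which do not tie a kit to a library. The authors deposited RPKM per gene and library and, per the file headers, p-values and FDR-corrected p-values of Baggerley's test. Per the submitters' processing notes reads were placed on mm9; for the aligner and counter the entry is not given in the sources used here. The table had 0 unused columns of per-sample values.

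A gene entered the fit if 2 or more libraries had 1 RPKM or more (10905 of 23240). The model, by limma 3.58.1 (R 4.3.3), was on log2(RPKM + 1) (trend, 1 mean per group, 10 libraries, 5 residual degrees of freedom), with Benjamini-Hochberg adjustment over all genes tested. A permutation of 2 against 2 libraries cannot go below p = 0.333, so no such test was used. The planned choice between counts and RPKM was settled by the unit. Whole reads worked back from the RPKM values (19336 of 19336 genes above 0, within 0.01 read) gave depths of 20.8 to 54.9 M; 1 read in 1 kb is 0.0182 to 0.0480 RPKM. Precision is set by having 2 libraries per group. The fit and the recovery of reads were tested on simulated data.

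Members and gene lists were chosen with earlier results of these data known. Named list genes are up to 3 called genes in each direction with the largest change, and up to 4 from marker lists; results of some list genes are not reported here. The nearest genes by Pearson r are those with a mean of at least 5 RPKM and an SD of at least 0.5. Promoter windows are RefSeq's for GRCm38.p6. Alternatives were quantile normalization, a pseudocount of 0.1, no filter, limma without trend, the compared groups alone, each library left out, a replicate block, lanes 4 and 5 alone, removal of the trend with gene length and, added after the data were seen, voom on the reads worked back.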

Additional observations from a re-analysis of the deposited data

Results flagged for a closer look

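The genotype effect on Meis1 differed between the populations by 1.33 on the log2 scale (SE 0.26, limma, adjusted p = 0.0266), and was singled out because the test of the difference itself passed. Meis1 was higher in Runx1-deleted than in wild-type GMP (0.82, adjusted p = 0.0256; both Runx1-deleted libraries above both wild-type ones) and lower in Runx1-deleted than in wild-type MEP (-0.52, adjusted p = 0.125; both below). Over the alternatives the difference of effects kept its sign, at 1.16 to 1.51, with adjusted p-values of 0.0158 to 0.15. Wild-type GMP and Runx1-deleted GMP were run in different lanes, so lane and genotype cannot be told apart there.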

How the results depend on the processing

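The number of members called was 2 in Runx1-deleted against wild-type GMP, and became 3 with the compared groups alone (Hlf added), 1 with a pseudocount of 0.1, 0 without the filter and 0 to 2 with single libraries left out. In MEP it was 2, and became 3 after quantile normalization (Hoxa7 added), 3 with the length trend removed (Meis1 added), 0 without the filter, 0 with the compared groups alone and 0 to 2 with libraries left out. For the difference between these effects it was 1, and became 0 without the filter, 0 with voom and 0 to 1 with libraries left out. For XMP against Runx1-deleted GMP it was 2, and became 5 after quantile normalization, 5 with the compared groups alone, 4 in lanes 4 and 5, 1 without the filter and 1 to 3 with libraries left out. For XMP against Runx1-deleted MEP it was 2, and became 1 without the filter, 1 with the compared groups alone and 1 to 2 with libraries left out. Between the wild-type populations it was 3, and 2 to 4 under every alternative run. The share of all genes called was not worked out under the alternatives, so a changed count is no result about the members in particular. The labels do not say that replicate numbers pair libraries (r of same-numbered deviations -0.47 to 0.78). Fitting the replicate number as a block left the counts of members called at 2, 2, 1, 2, 2 and 3. It changed no call of a member. In the headers, replicate 2 of Runx1-deleted GMP has the lower library number, whereas replicate 1 has it in every other group. A block by header number was not run, so a pairing in that order was not tested.

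Of 666 single-gene values under alternatives, 597 kept direction and side of the threshold, 18 became called, 41 were no longer called and 10 reversed. Hoxa9 reversed without wild-type GMP replicate 1, with log2 differences over left-out libraries of -0.76 to 0.10 in GMP by genotype and -0.10 to 0.77 between the wild-type populations. Hlf reversed in MEP by genotype, at -0.72 in lanes 4 and 5, at -0.0097 with the length trend removed and over a range of -0.72 to 1.17 with libraries left out (below 0 without wild-type MEP replicate 1, and at -0.09 without Runx1-deleted MEP replicate 1). With libraries left out Hlf also ranged from -0.39 to 1.49 in the difference of effects (below 0 without wild-type MEP replicate 2), from -0.46 to 0.17 in XMP against Runx1-deleted MEP (above 0 without Runx1-deleted MEP replicate 1, and at 0.0014 without XMP replicate 2) and from -0.27 to 1.62 between the wild-type populations (below 0 without wild-type MEP replicate 1). For Mecom, outside that count, the difference of effects was 0.13 without the filter and -1.01 with voom on genes of at least 10 reads. The cause of these changes was not tested, except that leaving out a library leaves fewer samples and the compared groups alone leave fewer residual degrees of freedom. Lanes 4 and 5 hold 1 wild-type MEP library, so values in MEP there rest on an arm of 1; they hold no wild-type GMP library, so comparisons with that group could not be run there. Depth limits Hoxa5 (at most 8 reads a library) and Mecom (22 to 449 reads).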

Other observations

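The antisense gene opposite Hoxa5, listed as 2700086A05Rik and looked up after its values were seen, had more reads than Hoxa5 itself. It averaged 0.236 ± 0.172 RPKM in XMP, 0.613 ± 0.243 in Runx1-deleted GMP against 0.284 ± 0.321 in wild-type GMP, with 0.151 ± 0.0133 in Runx1-deleted MEP against 0.372 ± 0.294 in wild-type MEP (SD, n = 2 each). It was under 1 RPKM in every library and was not tested. Hoxb5, next in the Hoxb cluster, had 40 reads in all, with 0.0736 RPKM in XMP, 0.0336 in Runx1-deleted GMP against 0.00662 in wild-type GMP, with 0.101 in Runx1-deleted MEP against 0.0290 in wild-type MEP, too few reads to compare groups.

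The sum of 8 lymphoid markers was 0.959 to 1.20 RPKM in XMP, 1.98 to 3.32 in Runx1-deleted GMP against 2.80 to 3.05 in wild-type GMP, with 0.572 to 0.774 in Runx1-deleted MEP against 2.24 to 2.49 in wild-type MEP. Only 2 of the 8 were tested, and by group 6 to 8 of them stayed under 1 RPKM. Cd79a was called lower in Runx1-deleted than in wild-type cells in both GMP (-0.57, adjusted p = 0.0295) and MEP (-0.63, adjusted p = 0.0147). It was near the filter, at 1.18 RPKM in wild-type GMP and 0.974 RPKM in wild-type MEP. Klrd1, the other tested marker, was called in neither GMP (-0.03, adjusted p = 0.943) nor MEP (-0.47, adjusted p = 0.217). Of 7 stromal and endothelial markers the sum was 20.0 to 25.9 RPKM in XMP, 5.42 to 5.45 in Runx1-deleted GMP against 2.08 to 2.18 in wild-type GMP, with 8.55 to 9.92 in Runx1-deleted MEP against 2.58 to 3.13 in wild-type MEP; Kdr was called higher in each Runx1-deleted group than in its wild-type counterpart, while 5 or 6 of the 7 markers stayed under 1 RPKM in every group.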
